A study of Mus musculus with 12 samples.

Results

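Curcumin added to swimming was examined by setting 3 RNA sequencing libraries from a combination group against 3 from a swimming group, over all genes of the deposited count table. These are 6 of the 12 libraries of the study, chosen by group, and 13638 of 21899 genes held enough counts to be tested. All libraries came from tumours of 4T1-LUC, a mouse breast cancer cell line, inoculated under the skin. The hosts were mice of the BALB/c strain, 4 to 6 weeks old. Mice of the swimming group were given corn oil (200 µL by gavage each afternoon) and swam for 30 min, starting 30 min after gavage. Mice of the combination group were given curcumin at 100 mg/kg in the same volume of corn oil and swam in the same way. The other 6 libraries, a tumour control group on corn oil and a curcumin group at the same dose, neither of which swam, are used here for levels and for the same addition of curcumin without swimming. Both compared groups therefore share the corn oil, the swimming and a single inoculated cell line. The treatment label of the swimming libraries names corn oil alone, and the swimming stands in their titles and protocol. The labels do not say whether the 3 libraries of a group came from separate tumours or mice, so every p-value rests on a spread between samples that may be technical.

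Curcumin, a polyphenol of turmeric, is known in cultured cells for lowering NF-kB activity and for inducing antioxidant genes through Nrf2. Tumours that outgrow their blood supply become hypoxic, and stabilised hypoxia-inducible factors then raise transcription of glucose transporters, glycolytic enzymes and vessel growth factors. Tumour vessels are lined by endothelial cells, wrapped by pericytes and embedded in a collagen matrix made largely by fibroblasts. 4T1 tumours are also known for a strong neutrophil response in their hosts.

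Library totals of the 6 libraries ran from 15444877 counts (swimming 1) to 16873682 (combination 2). Expression is given in CPM (counts scaled to the library total and between libraries by TMM) with the mean ± SD of n = 3 per group. Changes are given as log2 fold changes of combination against swimming from edgeR ± an SE derived from its test statistic. The 3 combination libraries were much more alike than the swimming libraries, with a biological coefficient of variation of 6.47% against 16.3%. The values were 12.4% in the curcumin group and 26.7% in the control group. Counting noise alone would give a chi-square per degree of freedom near 1 between libraries of a group, and the pairs gave 3.67 to 7.66 in the combination group and 12.9 to 27.0 in the swimming group. Swimming 2 stood apart by low skeletal muscle and T cell genes (list levels of -2.53 and -1.68 on the centred log2 CPM scale, against -0.35 and 0.25 in swimming 1), and swimming 3 by low endothelial genes (-1.03, against -0.47 and -0.28 in swimming 1 and 2). Tumour epithelium markers were found in all 12 libraries, and none of 15 was at 0 in all of the 6 compared libraries. Their summed level was 3507 to 3845 CPM in the swimming group and 3569 to 3756 CPM in the combination group. The label gives the cell type as breast cancer cells, but markers of vessels, fibroblasts, leukocytes and muscle were detected too, and in such bulk samples fewer cells of a type and less RNA per cell cannot be told apart.

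Adding curcumin to swimming was accompanied by higher expression of vessel and matrix genes and lower expression of hypoxia, glycolysis, clock and neutrophil genes. At an adjusted p of 0.05 or below (edgeR quasi-likelihood test, Benjamini-Hochberg over 13638 genes), 938 genes were called (6.88%), of which 500 were higher (3.67%) and 438 lower (3.21%) in the combination group. The log2 fold change was at least 1 in size for 304 of them, 223 higher and 81 lower, and the median size was 0.71. In 937 of the 938 the combination and swimming libraries did not overlap, as was also so for 20.4% (higher) and 20.2% (lower) of all genes tested. The same addition without swimming called 0 genes (0%), with a smallest adjusted p of 0.0562, 1512 genes at an unadjusted p under 0.05 and 87 calls by DESeq2. Of the 938 genes, 705 (75.2%) had the same sign there, against 64.4% of all tested genes. The called higher genes had a median log2 fold change of 0.90 with swimming and 0.19 without, and the called lower genes -0.60 and -0.14. These genes were selected by their calls with swimming, so smaller medians without it follow at least in part from that selection.

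**Figure D1:**
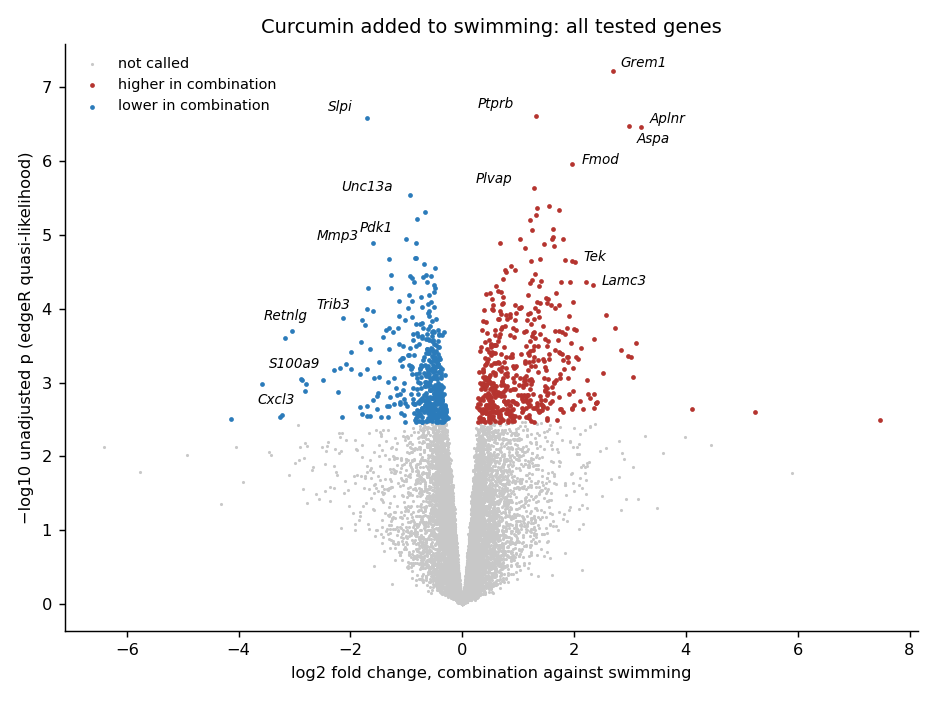
Each point is 1 of 13638 tested genes, with the log2 fold change of combination against swimming on the x axis and -log10 of the unadjusted p (edgeR) on the y axis, where red and blue mark the 500 higher and 438 lower called genes. Grem1, Ptprb, Aplnr, Aspa, Fmod and Slpi stand at the top, and called genes on the right reach larger fold changes than those on the left.

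The number of calls rested on each library. Without swimming 1, 2 or 3 it was 88, 1017 or 147, and without combination 1, 2 or 3 it was 97, 28 or 57. Libraries of the other groups enter through the shared spread: without control 1, 2 or 3 it was 1632, 2730 or 884, and without curcumin 1, 2 or 3 it was 718, 791 or 479. Summing the combination libraries into 1 sample left 0 calls, with 1307 genes at an unadjusted p under 0.05, in a test whose combination arm holds a single sample. Only 26 of the 938 genes (2.77%) were called in every fit that left out 1 of the 12 libraries, 21 higher and 5 lower. The 21 were Aplnr, Aspa, Grem1, Fmod, Calcrl, Bcl6b, Rgs5, Flt4, Emcn, Il1rl1, Adgrl4, Meox2, Abcc9, Dpysl3, Ptprb, Plvap, Cyyr1, Sparcl1, Gimap8, Pecam1 and Erbb3, and the 5 were Slpi, Unc13a, Ptges, Mtss1 and Rnf169. Calcrl, Il1rl1, Cyyr1, Gimap8 and Erbb3 were singled out by this count, after their values were seen. Each other gene called below lost its call in at least 1 fit that left out a library.

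Endothelial genes were higher with the combination. Of 17 endothelial marker genes, all tested, 11 rose and none fell (6.88% of all genes were called), 16 had a positive log2 fold change, and the median was 1.27 against -0.005 over all tested genes. Ptprb, an endothelial tyrosine phosphatase that holds back the Tie2 receptor, was at 12.5, 11.8 and 13.6 CPM in swimming 1, 2 and 3 and at 32.8, 28.9 and 32.7 CPM in combination 1, 2 and 3. All 3 combination libraries were far above the highest swimming library, and the log2 fold change was 1.31 ± 0.13 (adjusted p = 0.000945). Its gene lies on chromosome 10, 116111428 to 116225440, in the table's coordinates. Pecam1, an adhesion molecule of endothelial junctions, was at 72.1, 73.7 and 53.7 CPM with swimming and at 131, 146 and 130.03 CPM with the combination, a log2 fold change of 1.03 ± 0.15 (adjusted p = 0.0069). Plvap, which forms the diaphragms of fenestrated capillaries, rose by 1.27 ± 0.16 (adjusted p = 0.00454), and Emcn, a sialomucin of veins and capillaries, by 1.62 ± 0.22 (adjusted p = 0.00686). The groups did not overlap for any of these 4 genes, and all 4 kept their call whichever library was left out. Tek and Kdr, the receptors for angiopoietins and for VEGF, rose by 1.97 ± 0.30 and 1.37 ± 0.23 (adjusted p = 0.00881 and 0.0108), and both lost the call without combination 2. Vwf and Eng, by contrast, gave log2 fold changes of 0.10 and -0.01 and did not pass the test. The number of endothelial genes called was 6, 12 and 8 without swimming 1, 2 and 3, and 7, 4 and 6 without combination 1, 2 and 3.

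Endothelial levels in the combination group lay near or above those of the tumour control group, while those of the swimming group were the lowest of the 4 groups. Ptprb was at 28.6 ± 1.95 CPM in controls, 22.1 ± 3.62 CPM with curcumin alone, 12.7 ± 0.893 CPM with swimming and 31.5 ± 2.18 CPM with the combination. For Pecam1 the corresponding means were 112 ± 17.6, 103 ± 13.2, 66.5 ± 11.1 and 135 ± 8.79 CPM. Summed over the 17 markers, the 3 swimming libraries spanned 377 to 450.0 CPM, the combination libraries 716 to 772 CPM, the controls 564 to 734 CPM and the curcumin libraries 565 to 592 CPM. None of the 17 was at 0 in all of the 6 compared libraries. Without swimming, curcumin gave a negative log2 fold change for 16 of the 17 genes, with a median of -0.17 and none called. Control 2 weighed on this: without it 8 of the 17 were positive and the median was -0.004. Ptprb and Plvap were the endothelial markers among the 19 genes (0.139%) for which the change with curcumin itself differed between mice that swam and mice that did not. For Ptprb the difference of the 2 log2 fold changes was 1.69 ± 0.18 (adjusted p = 0.00816), and for Plvap it was 1.32 ± 0.22 (adjusted p = 0.0395).

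Among 26 genes of VEGF, angiopoietin, apelin and Notch signalling, 6 rose and none fell, where 3.67% of all genes were called higher. The median log2 fold change was 0.25. The 6 genes that rose are named next. They were 5 receptors (Aplnr, Flt4, Tek, Kdr and Tie1, of which the last 3 stand in the endothelial list as well) and 1 ligand, Angpt1. Aplnr, the apelin receptor, was at 2.41, 5.42 and 1.82 CPM in the swimming libraries and at 31.97, 27.01 and 28.95 CPM in the combination libraries. The lowest combination library was far above the highest swimming library, and the log2 fold change was 3.19 ± 0.33 (adjusted p = 0.000945). Aplnr was also above its means of 9.03 ± 2.74 CPM in controls and 13.2 ± 0.736 CPM with curcumin alone, so here the combination group was the highest of the 4. Flt4, the receptor for VEGF-C, rose by 1.63 ± 0.23 (adjusted p = 0.0069) and Angpt1, the Tie2 agonist made by perivascular cells, by 1.49 ± 0.36 (adjusted p = 0.0324). Apln, the ligand of Aplnr, gave 0.25 (adjusted p = 0.306) and did not pass the test. Vegfa, the main endothelial growth factor and itself a hypoxia target, was at 258, 297 and 213 CPM with swimming and at 189, 187 and 183 CPM with the combination. Its groups did not overlap, yet the log2 fold change of -0.46 ± 0.19 did not pass the test (adjusted p = 0.136). The pathway's calls numbered 4, 7 and 4 without swimming 1, 2 and 3, and 4, 2 and 4 without combination 1, 2 and 3, with 11 without control 2.

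Of 10 tested pericyte and smooth muscle genes 2 rose and none fell (3.67% of all genes were called higher), with a median of 0.43. Rgs5, a regulator of G-protein signalling in pericytes, was at 14.5, 16.8 and 18.5 CPM with swimming and 47.1, 55.7 and 51.6 CPM with the combination, and the log2 fold change was 1.63 ± 0.24 (adjusted p = 0.00712). Abcc9, a subunit of the potassium channel of pericytes, rose by 1.34 ± 0.17 (adjusted p = 0.00549). Both kept the call in every fit that left out a library. The contractile genes Acta2 and Myh11 gave 0.33 each and did not pass the test. Of the genes outside the lists, Adgrl4 (an adhesion receptor of endothelium), Bcl6b (a transcriptional repressor), Sparcl1 (a matrix protein made by vessel cells) and Dpysl3 rose by 1.56 ± 0.20, 1.74 ± 0.23, 1.21 ± 0.16 and 1.32 ± 0.17. Meox2, a homeobox gene, rose by 1.46 ± 0.21 (adjusted p = 0.0069). Calcrl, the receptor for the vessel peptide adrenomedullin, was at 1.76 ± 0.218 CPM with swimming and 6.17 ± 0.887 CPM with the combination (1.81 ± 0.26, adjusted p = 0.0069). Il1rl1, the receptor for IL-33, rose by 1.61 ± 0.23 and Gimap8, a GTPase of the GIMAP family, by 1.12 ± 0.16. Erbb3, a receptor of the EGF receptor family, was at 33.2 ± 3.22 CPM in controls, 23.3 ± 3.37 CPM with curcumin alone, 20.2 ± 2.64 CPM with swimming and 36.9 ± 2.61 CPM with the combination (0.86 ± 0.13, adjusted p = 0.00957).

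**Figure D2:**
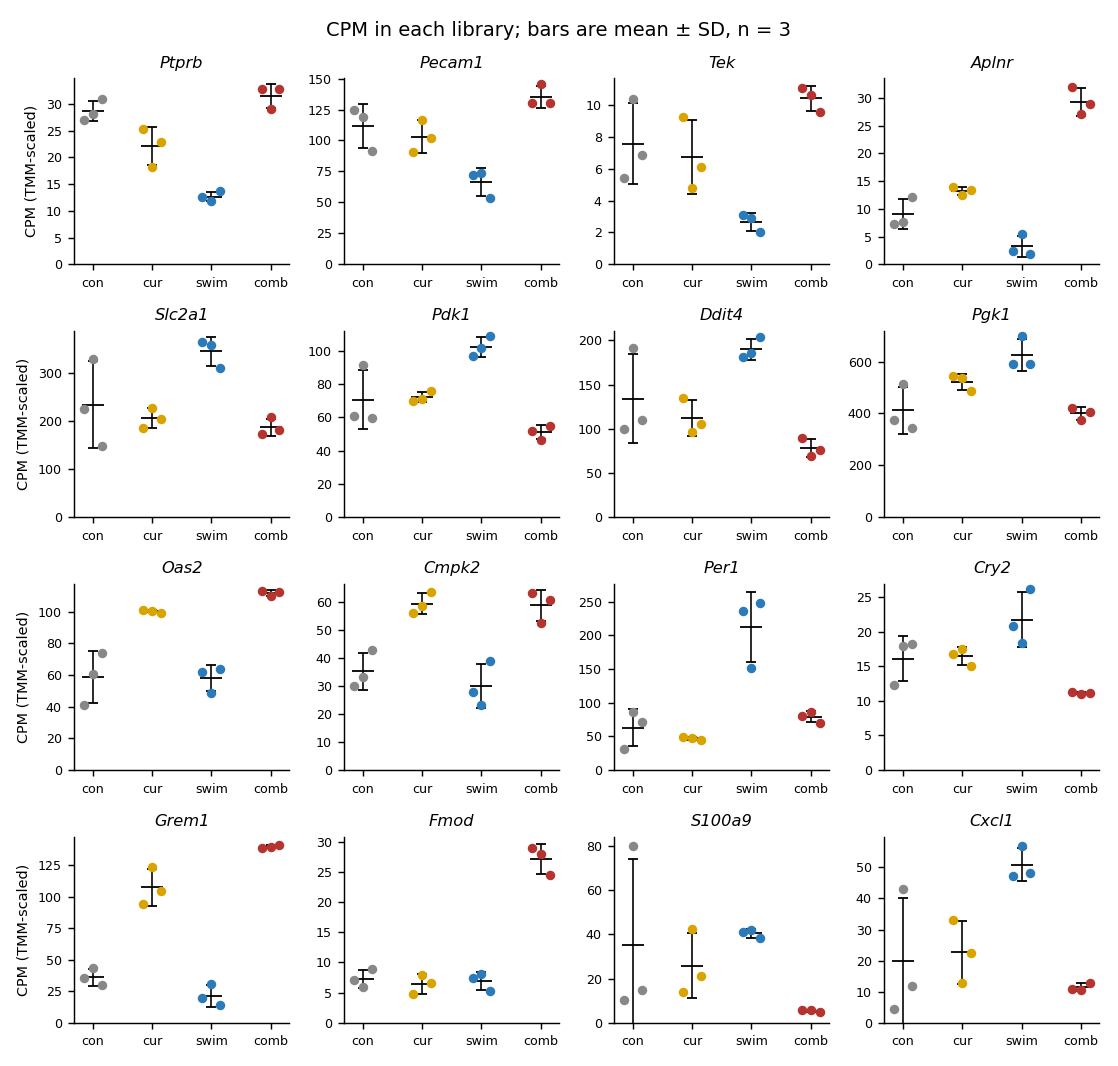
Points give the TMM-scaled CPM of single libraries for 16 genes in the control (con), curcumin (cur), swimming (swim) and combination (comb) groups, with the mean ± SD of 3 libraries. SD bars that would pass below 0 are cut at the axis. Swimming libraries are the lowest for Ptprb, Pecam1 and Tek and the highest for Pdk1, Per1 and Cxcl1, whereas Oas2 and Cmpk2 are high in both curcumin groups.

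Matrix and fibroblast genes were also higher in the combination group, with less stable calls. Of all genes 3.67% were called higher and 3.21% lower. Among 27 tested matrix glycoproteins, proteoglycans and crosslinking enzymes, 8 rose and 1 fell (the hydroxylase P4ha1, a hypoxia gene as well), with a median of 0.62, and among 18 collagens 4 rose and 1 fell, with a median of 0.79. Fmod, a small proteoglycan that binds collagen fibrils, was at 7.499, 8.06 and 5.203 CPM with swimming and 29.00, 27.9 and 24.4 CPM with the combination. This gene stood at 7.29 ± 1.51 CPM in controls and 6.39 ± 1.61 CPM with curcumin alone, so the combination group alone stood high (log2 fold change 1.97 ± 0.22, adjusted p = 0.00251). Lamc3, a laminin chain, followed another pattern: it was at 1.25 ± 0.614 CPM in controls, 9.55 ± 0.709 CPM with curcumin alone, 2.07 ± 1.08 CPM with swimming and 10.4 ± 1.79 CPM with the combination. Its log2 fold changes were 2.33 ± 0.38 with swimming (adjusted p = 0.0108) and 2.93 ± 0.40 without, where the adjusted p was 0.0562. Thbs2, Tnc, Sparc and Lama4, all secreted matrix proteins, rose by 1.66 ± 0.32, 1.18 ± 0.25, 0.91 ± 0.17 and 1.14 ± 0.22 (adjusted p = 0.0165, 0.0207, 0.0165 and 0.0165). The matrix calls numbered 2, 11 and 3 without swimming 1, 2 and 3, and 2, 1 and 2 without combination 1, 2 and 3, with 21 without control 2.

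The level of the collagen list was spread widely over the swimming libraries, at -0.18, 0.03 and -0.66 on the centred log2 CPM scale. Col5a2 was at 397, 513 and 249 CPM there and at 836, 801 and 829.9 CPM in the combination libraries, a log2 fold change of 1.09 ± 0.29 (adjusted p = 0.0416). Col11a1 rose by 1.84 ± 0.36, Col6a3 by 1.21 ± 0.30 and Col12a1 by 1.07 ± 0.28 (adjusted p = 0.0168, 0.0372 and 0.0407). Swimming 3 was the lowest swimming library for all 4 of these genes. Col1a1, Col1a2 and Col3a1, the most abundant fibrillar chains of connective tissue, gave 1.11, 1.02 and 1.23 with adjusted p of 0.084, 0.0927 and 0.0842 and were not called. Col18a1, the basement membrane collagen from which endostatin is cut, fell from 506 ± 37.4 to 346 ± 20.2 CPM (log2 fold change -0.55 ± 0.11, adjusted p = 0.018). The collagen calls numbered 0, 8 and 0 without swimming 1, 2 and 3, and 0, 0 and 0 without combination 1, 2 and 3, with 11 without control 2, 3 without control 3, 2 without curcumin 3. Curcumin without swimming gave collagens a median of 0.26, with 13 of 18 positive, and of 0.13 without control 2.

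Among 12 fibroblast markers 3 rose and none fell (3.67% of all genes were called higher), with a median of 0.75. Lrrc15, a marker of myofibroblast-like tumour fibroblasts, was at 68.2, 96.4 and 43.1 CPM with swimming and 179, 180.1 and 174 CPM with the combination (log2 fold change 1.36 ± 0.31, adjusted p = 0.0257). Its mean with curcumin alone was 147 ± 15.97 CPM, against 71.9 ± 30.2 CPM in controls. Pdgfrb rose by 0.89 ± 0.23 and Thy1 by 0.82 ± 0.23 (adjusted p = 0.0416 and 0.0497). The fibroblast markers summed to 342 to 440.0 CPM in the swimming libraries and 666 to 713 CPM in the combination libraries, and none of the 12 was at 0 in all 6 libraries. Their part in the matrix differences was not tested. No fibroblast marker was called without swimming 1, swimming 3 or any 1 combination library.

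Genes of growth factor signalling had calls in both directions, as did all genes, of which 3.67% were called higher and 3.21% lower. Grem1, a secreted BMP antagonist, had the smallest p of all genes. It was at 19.7, 31.1 and 13.9 CPM in the swimming libraries and at 139, 139.7 and 141 CPM in the combination libraries, a log2 fold change of 2.70 ± 0.24 (adjusted p = 0.000813). It was also higher with curcumin alone (107 ± 14.9 CPM) than in controls (36.1 ± 6.85 CPM), where its log2 fold change of 1.57 ± 0.23 had an adjusted p of 0.0562, so both curcumin groups lay above both groups without curcumin. Of 19 TGF-beta and BMP genes 3 rose and 2 fell: Grem1, Tgfb2 (1.28 ± 0.24) and the activin subunit Inhba (0.79 ± 0.20) rose, while the coreceptor Tgfbr3 (-1.16 ± 0.22) and the signal transducer Smad3 (-0.78 ± 0.18) fell. The list's median was -0.02, and its calls numbered 1, 5 and 2 without swimming 1, 2 and 3, and 2, 1 and 1 without combination 1, 2 and 3. Of 13 tested Wnt targets and feedback genes 4 rose and none fell (median 0.58), namely Nkd2 (1.51 ± 0.26), Rnf43 (1.29 ± 0.27), Dkk3 (1.19 ± 0.25) and Ccn4 (0.59 ± 0.14). Nkd2 and Rnf43 are inhibitors that the pathway induces. Prrx1 and Zeb1, transcription factors of mesenchymal cells, rose by 1.51 ± 0.31 and 0.71 ± 0.16, the only calls among 11 tested mesenchymal transition genes. These 6 Wnt and mesenchymal calls were all lost without swimming 1, combination 2 or combination 3.

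**Figure D3:**
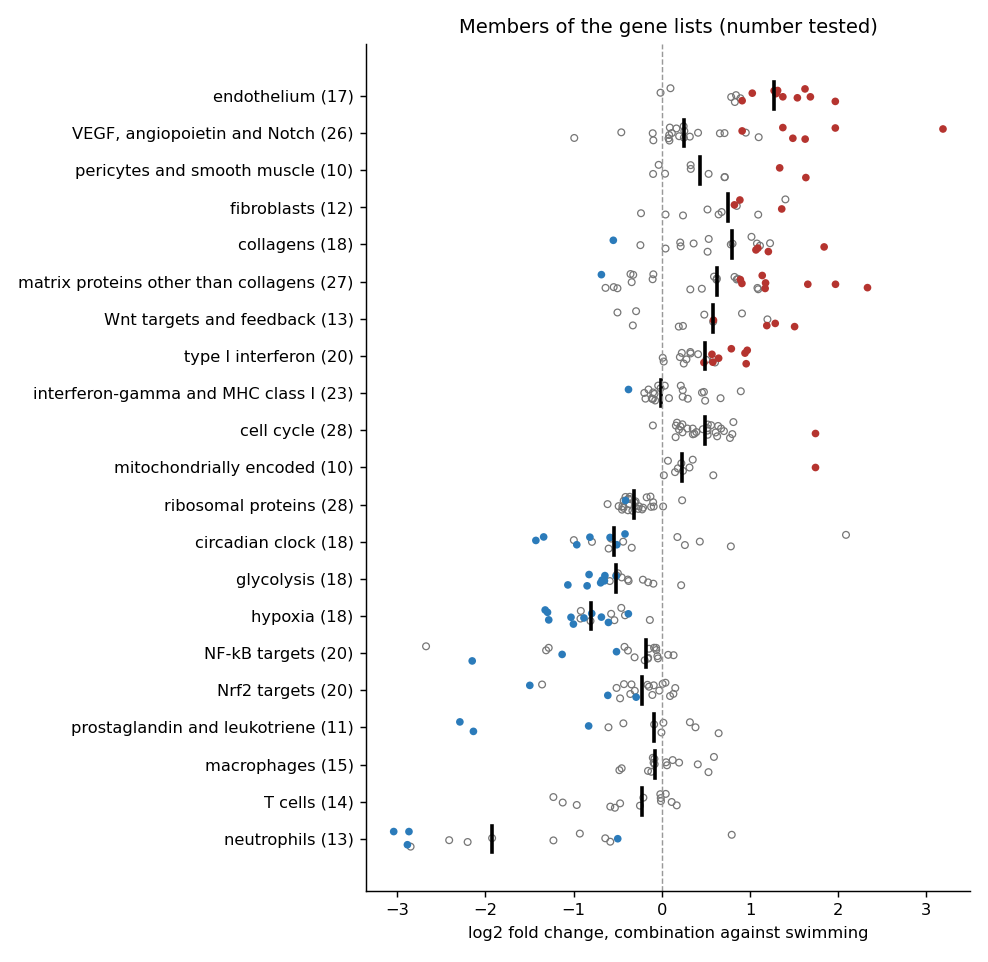
Each point is the log2 fold change of combination against swimming (x axis) for 1 tested member of the list named on the y axis, red or blue where called higher or lower and open where not called, and the black bar is the list's median. By median, endothelial genes lie furthest right and neutrophil genes furthest left of the lists drawn, and all 18 hypoxia genes lie below 0.

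Hypoxia and glycolysis genes were lower in the combination group. Of 18 tested hypoxia genes 10 fell and none rose (3.21% of all genes were called lower), all 18 had a negative log2 fold change (50.6% of all genes did), and the median was -0.80. Of 18 glycolysis genes 8 fell and none rose, with 17 negative and a median of -0.52. Pdk1, the kinase that keeps pyruvate out of the mitochondrial cycle, was at 96.9, 101 and 109 CPM with swimming and 51.7, 46.6 and 55.00 CPM with the combination (log2 fold change -1.002 ± 0.14, adjusted p = 0.0069). Slc2a1, the glucose transporter GLUT1, was at 366, 359.6 and 311 CPM with swimming and 173, 208 and 181 CPM with the combination (-0.88 ± 0.21, adjusted p = 0.0316). The groups did not overlap for either gene. Ddit4, an inhibitor of mTORC1 induced by hypoxia and stress, fell from 189.9 ± 11.9 to 78.2 ± 10.1 CPM (-1.28 ± 0.21, adjusted p = 0.0111). Ero1a, an oxidase of the endoplasmic reticulum, and Kdm3a, a histone demethylase, fell by 1.03 and 0.60 on the log2 scale. Adm, the adrenomedullin that acts on Calcrl, fell by 1.32, Ndrg1 by 1.30 and the carbonic anhydrase Car9 by 0.79 (adjusted p = 0.046, 0.0355 and 0.0379). Egln1, the oxygen-sensing hydroxylase that marks hypoxia-inducible factors for degradation, was at 209.9, 206 and 191 CPM with swimming and 159, 160.1 and 148 CPM with the combination (-0.38 ± 0.09, adjusted p = 0.0304).

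Along the glycolytic chain calls fell on transport, on early and on late steps. The transporter Slc2a3 fell by 1.06 on the log2 scale, hexokinase Hk2 by 0.85, phosphofructokinase Pfkl by 0.82, aldolase Aldoc by 0.69, Tpi1 by 0.65 and phosphoglycerate kinase Pgk1 by 0.64. Hk2 was at 208, 205 and 212 CPM with swimming and at 118, 109 and 121 CPM with the combination (adjusted p = 0.00881), and Pgk1 at 589, 698 and 592 CPM and 423, 374 and 405 CPM (adjusted p = 0.0207). The 2 groups were apart for both genes, and within each group the libraries lay close together. The glycogen branching enzyme Gbe1, outside the list, fell by 0.82 (adjusted p = 0.00881). Pkm, Hk1 and Pgam1 gave -0.21, -0.09 and -0.15 and did not pass the test. Hypoxia calls numbered 2, 4 and 3 without swimming 1, 2 and 3, and 2, 0 and 1 without combination 1, 2 and 3, with 4 without curcumin 3. Glycolysis calls numbered 2, 5 and 2 without swimming 1, 2 and 3, and 2, 0 and 2 without combination 1, 2 and 3, with 13 without control 2. Leaving out 1 of these 6 libraries kept the hypoxia median between -0.87 and -0.72, so the size moved little while most calls were lost.

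Hypoxia gene levels were highest in the swimming group and lowest, by the group mean, in the combination group. The mean centred log2 CPM of the list was 0.48, 0.58 and 0.36 in the swimming libraries and -0.31, -0.30 and -0.30 in the combination libraries. The controls were at -0.03, 0.33 and -0.59, and the curcumin libraries at -0.22, 0.08 and -0.08. Controls spread below and above the combination group, and 1 reached close to the swimming group. Slc2a1 was at 234 ± 90.1 CPM in controls and 206 ± 20.8 CPM with curcumin alone. Curcumin without swimming gave the hypoxia list a median of -0.05 and the glycolysis list a median of 0.03, which became 0.18 and 0.20 without control 2. None of their genes was called there. No gene of either list was among the 19 genes whose change with curcumin differed between swum and unswum mice, and the medians of that difference were -0.75 and -0.58.

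Promoters of hypoxia genes were read for ACGTG, the core to which hypoxia-inducible factors bind, in the 250 bases before the start of each gene (RefSeq, build GRCm38.p6, both strands). It was found in 12 of 16 list members with a promoter sequence (75%), in 6 of 9 called members (66.7%) and in 24.5% of 10797 tested genes. The 4 windows below show it in called genes, 5′ to 3′ on the gene's strand, with the core or its reverse complement in capitals.
Ddit4, chr10:59951933-59951977 (minus strand): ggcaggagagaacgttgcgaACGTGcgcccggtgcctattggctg
Slc2a1, chr4:119108689-119108733 (plus strand): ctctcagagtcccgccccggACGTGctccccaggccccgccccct
Egln1, chr8:124949298-124949342 (minus strand): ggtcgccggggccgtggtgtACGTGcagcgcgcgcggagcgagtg
Ero1a, chr14:45318611-45318655 (minus strand): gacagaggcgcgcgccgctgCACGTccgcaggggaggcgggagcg
In Ddit4 the core began 187 bases before the start, in Slc2a1 36, in Egln1 68 and in Ero1a 63 bases before. A match is a description of these letters and not a measured binding site. The share was not larger in called members than in all tested members. The hypoxia, interferon and clock lists hold genes known for those responses. Shares above that of all genes therefore follow at least in part from the choice of members. This motif and that of the clock genes below were chosen after the calls were seen.

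Type I interferon genes were higher in the combination group and had a similar median with curcumin alone. Of 20 tested interferon-induced genes 8 rose and none fell, where 3.67% of all genes were called higher. All 20 had a positive log2 fold change (49.4% of all genes did), and the median was 0.49. Oas2, a sensor of double-stranded RNA, was at 62.00, 48.8 and 63.8 CPM in the swimming libraries and 113, 109.8 and 113 CPM in the combination libraries (log2 fold change 0.94 ± 0.17, adjusted p = 0.0132). It was at 41.3, 60.5 and 73.9 CPM in the controls and 101, 101 and 99.5 CPM in the curcumin libraries. Both groups with curcumin were above both groups without it. Cmpk2, Rsad2 and Ifit2, all antiviral effectors, rose by 0.97 ± 0.18, 0.96 ± 0.21 and 0.79 ± 0.17 (adjusted p = 0.014, 0.024 and 0.0216). Oas3 and Ifi44 rose by 0.58 ± 0.13 and 0.64 ± 0.16. Without swimming the same list had a median of 0.45, with 20 of 20 positive and none called, and the median of the difference between the 2 changes was 0.03. Oas2 gave 0.78 ± 0.17 there (adjusted p = 0.238). Interferon calls numbered 0, 5 and 8 without swimming 1, 2 and 3, and 0, 0 and 0 without combination 1, 2 and 3, with 5 without curcumin 3. The swimming libraries differed in this list, at -0.23, -0.53 and 0.06 on the centred scale.

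The core of the interferon-stimulated response element (GAAA, any 2 bases and GAAA again) was found in 7 of 16 list members with a promoter sequence (43.8%), in 2 of 7 called members (28.6%) and in 362 of 10797 tested genes (3.35%), on either strand of the same 250 bases. Here too the share was not larger in called members than in all tested members. The 2 called genes with the motif were Oas3 and Rsad2, printed with the match in capitals. In Rsad2 it lies on the opposite strand.
Oas3, chr5:120777705-120777754 (minus strand): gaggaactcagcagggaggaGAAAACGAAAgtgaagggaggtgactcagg
Rsad2, chr12:26456543-26456592 (minus strand): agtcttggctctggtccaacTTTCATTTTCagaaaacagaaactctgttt

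Genes answering to interferon-gamma and those of antigen presentation showed another picture. Of 23 genes of this kind none rose and 1 fell (3.21% of all genes were called lower), with a median of -0.01. Curcumin without swimming gave a median of 0.33, with 22 of 23 positive and none called (0.22 with 19 positive without curcumin 2). Irf1, a transcription factor induced by interferon-gamma, was at 177, 153 and 184 CPM with swimming and 132, 135 and 126 CPM with the combination and fell by 0.38 on the log2 scale (adjusted p = 0.0317). It was at 169.7 ± 3.24 CPM in controls and 214 ± 23.3 CPM with curcumin alone, and the difference between the 2 changes was -0.72 ± 0.13 (adjusted p = 0.0558). The GTPase Irgm2 gave 0.46 ± 0.13 (adjusted p = 0.054). Of 9 tested MHC class II genes none was called by edgeR or DESeq2, and 1 had an unadjusted p under 0.05.

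Clock genes were lower in part. Of 18 tested clock genes 7 fell and none rose (3.21% of all genes were called lower), with a median of -0.54. Per1, a repressor of the clock that glucocorticoids and exercise also induce, was at 237, 152 and 248 CPM in the swimming libraries and 80.4, 86.2 and 70.4 CPM in the combination libraries (log2 fold change -1.43 ± 0.28, adjusted p = 0.0171). The combination group lay close to the controls (62.98 ± 28.03 CPM) and above the curcumin group (46.99 ± 2.46 CPM), and the swimming group was the highest. Cry2, another repressor, was at 20.8, 18.3 and 26.1 CPM with swimming and at 11.3, 11.02 and 11.1 CPM with the combination (-0.96 ± 0.17, adjusted p = 0.0133). The nuclear receptors Nr1d1 and Nr1d2 fell by 0.81 and 0.51, the repressor Ciart by 1.34 and the output factor Tef by 0.42 on the log2 scale. Per2 was called as well. The activators Arntl, Clock and Npas2 gave positive values of 0.43, 0.18 and 2.09 that did not pass the test. Within the list 3 genes were higher and 13 lower at an unadjusted p under 0.05 (edgeR), and DESeq2 called 1 higher and 12 lower. Clock calls numbered 2, 4 and 1 without swimming 1, 2 and 3, and 0, 0 and 0 without combination 1, 2 and 3, with 15 without control 2, 4 without curcumin 3. The labels used here give no hour of tumour collection.

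CACGTG, the E-box to which CLOCK and BMAL1 bind, was found before the start of 5 of 15 clock genes with a promoter sequence (33.3%), of 3 of 6 called ones (50%) and of 9.58% of tested genes. It contains the hypoxia core ACGTG, so every such promoter also counts for that motif. The called genes were Per1, Tef and Ciart, and the E-boxes of Per1 and Ciart furthest from the start are shown in capitals.
Per1, chr11:69098763-69098808 (plus strand): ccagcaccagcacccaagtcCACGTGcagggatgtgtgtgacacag
Ciart, chr3:95882319-95882364 (minus strand): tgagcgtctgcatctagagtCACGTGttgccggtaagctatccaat

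Among 14 tested glucocorticoid targets Per1 was the only call, where 6.88% of all genes were called. The list had 10 negative values and a median of -0.39, against -0.34 without swimming (-0.09 there without control 2). Of 8 tested genes of noradrenaline handling and adrenergic receptors 1 fell, the receptor Adra1b, at 2.099 ± 0.459 CPM with swimming and 0.489 ± 0.175 CPM with the combination (adjusted p = 0.0238). Slc6a2, the noradrenaline transporter, had 15 summed counts in the swimming libraries and 2 in the combination libraries, a ratio of 0.127 (exact 95% interval 0.0141 to 0.548, counting error only). It was at 4.24 ± 0.807 CPM in controls and 1.03 ± 0.289 CPM with curcumin alone, so all 3 treated groups lay under the controls.

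NF-kB targets had mostly negative values, and over all genes 3.21% were called lower. Of 20 tested targets 3 fell and none rose, 18 had a negative log2 fold change, and the median was -0.18. Nfkbia, the inhibitor that NF-kB itself induces, was at 102, 107 and 96.2 CPM with swimming and 45.6, 44.8 and 48.9 CPM with the combination (log2 fold change -1.13 ± 0.21, adjusted p = 0.0142). The groups were well apart. The curcumin libraries (68.9 ± 5.44 CPM) lay between them, and the controls (73.2 ± 29.3 CPM) spread over both. Relb, a subunit of the alternative pathway, fell by 0.51 (adjusted p = 0.0313). Cxcl1, a neutrophil-attracting chemokine, fell from 47.3, 56.9 and 48.3 CPM to 10.8, 10.7 and 12.9 CPM (-2.15 ± 0.58, adjusted p = 0.0459), and its relative Cxcl3, read in the chemokine list, from 13.2 ± 9.895 to 1.41 ± 0.352 CPM (-3.22 ± 0.87, adjusted p = 0.0448). Il1b and Ptgs2 gave 0.13 ± 0.23 and -0.16 ± 0.25, far from the threshold (adjusted p = 0.739 and 0.72). The NF-kB calls numbered 0, 1 and 1 without swimming 1, 2 and 3, and 0, 0 and 0 without combination 1, 2 and 3, with 8 without control 2.

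Of 22 chemokines 1 rose and 1 fell, with a median of -0.008, where 3.67% of all genes were called higher and 3.21% lower. Besides Cxcl3, Cxcl14, a chemokine of epithelium and fibroblasts, was at 197, 219.7 and 183 CPM with swimming and 382, 387 and 363 CPM with the combination (0.92 ± 0.23, adjusted p = 0.0376). Of 11 tested genes of prostaglandin and leukotriene synthesis 3 fell and none rose. Ptges, the inducible prostaglandin E synthase, was at 36.3, 35.6 and 43.1 CPM with swimming and 21.8, 22.2 and 20.7 CPM with the combination (-0.83 ± 0.12, adjusted p = 0.0069). Every combination library was below every swimming library, and the call held without each library in turn. Alox5, the 5-lipoxygenase of leukotriene synthesis, and Ptgis, the prostacyclin synthase, fell by 2.14 and 2.29 on the log2 scale, from 6.68 ± 3.55 and 3.84 ± 0.542 CPM to 1.51 ± 0.578 and 0.7804 ± 0.148 CPM. The prostaglandin and leukotriene calls numbered 1, 3 and 2 without swimming 1, 2 and 3, and 2, 1 and 1 without combination 1, 2 and 3. Slpi, an inhibitor of leukocyte elastase, had the smallest p of the genes that fell. It was at 19.2, 20.4 and 23.1 CPM with swimming and 6.96, 6.24 and 6.07 CPM with the combination (-1.70 ± 0.17, adjusted p = 0.000945), against 16.6 ± 3.51 CPM in controls and 15.7 ± 1.67 CPM with curcumin alone.

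Neutrophil markers had the lowest median of the leukocyte lists. Of 13 tested markers 4 fell and none rose (3.21% of all genes were called lower), 12 were negative, and the median was -1.92. S100a9 and S100a8, which form calprotectin, were at 40.4 ± 1.98 and 10.1 ± 1.63 CPM with swimming and at 5.46 ± 0.515 and 1.37 ± 0.0342 CPM with the combination (adjusted p = 0.0277 and 0.0284). Retnlg, a resistin-like peptide of neutrophil granules, fell from 227 to 29 summed counts, a ratio of 0.122 (exact 95% interval 0.0799 to 0.180, counting error only). In the controls S100a9 spanned 10.4 to 79.7 CPM, so 1 control library was above every swimming library and 2 lay between the groups. Padi4, by far the largest part of the markers' summed CPM, fell by 0.50, and the sum was 928 to 952 CPM in the swimming libraries and 765 to 809.7 CPM in the combination libraries. Stfa2, Stfa2l1 and Asprv1, which are not on the list, fell by 4.13, 2.81 and 3.26 on the log2 scale. Stfa genes have near-identical copies, so their counts are uncertain. Neutrophil calls numbered 0, 4 and 1 without swimming 1, 2 and 3, and 1, 0 and 0 without combination 1, 2 and 3, with 7 without control 1, 10 without control 2, and the list's median stayed between -2.19 and -1.64.

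Other leukocyte lists gave no call by edgeR. Of 15 tested macrophage markers 0 were called (2 lower at an unadjusted p under 0.05, both called by DESeq2), with a median of -0.08. Msr1, a scavenger receptor, was at 151, 130.1 and 177 CPM with swimming and 104, 113 and 117 CPM with the combination (adjusted p = 0.0518). Of 14 T cell genes 0 were called (2 lower at an unadjusted p under 0.05, 1 called by DESeq2), and the summed level ran from 31.2 to 173 CPM in the swimming libraries and from 83.8 to 94.5 CPM in the combination libraries. The checkpoint receptors Ctla4 and Pdcd1 gave -1.23 ± 0.41 and -0.96 ± 0.40. Swimming 2 was the lowest library for both, and without it 3 T cell genes were called lower. Of 8 cytotoxic cell genes 0 were called (1 higher at an unadjusted p under 0.05, called by DESeq2). That gene was Gzma, a granzyme, at 9.17, 11.2 and 8.84 CPM with swimming and 36.8, 33.1 and 41.7 CPM with the combination (adjusted p = 0.0654), while Prf1 gave -0.75. Of 10 dendritic cell genes 0 were called by either tool, with 2 lower at an unadjusted p under 0.05. Without swimming 2, which was low for these cell types as well, 3 dendritic cell and 2 macrophage genes were called lower.

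**Figure D4:**
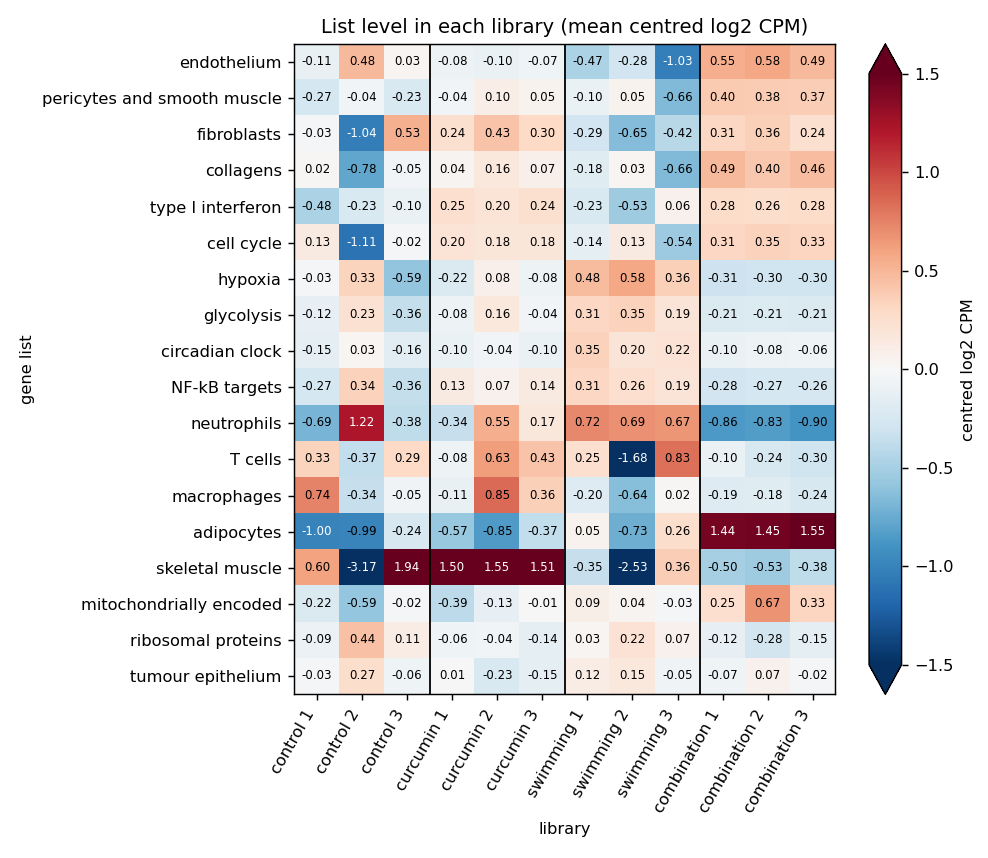
Rows are gene lists and columns are the 12 libraries, and each cell gives the mean over tested members of log2 CPM centred on the gene's mean over all libraries, with colours capped at -1.5 and 1.5. The 3 combination columns are close to each other in most lists, hypoxia is positive in all swimming and negative in all combination libraries, and type I interferon is positive in all curcumin and combination libraries.

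In programmes on which curcumin is known to act in culture, and in other stress genes, all calls were lower. Over all genes 3.21% were called lower and 3.67% higher. Of 20 tested Nrf2 targets 3 fell and none rose, with a median of -0.23: the glutathione transferase Gsta4 by 1.496, Osgin1 by 0.61 and the transketolase Tkt by 0.29 on the log2 scale. Hmox1, which breaks down heme, was at 192, 223 and 113 CPM with swimming and 117, 144 and 109 CPM with the combination (-0.51 ± 0.32, adjusted p = 0.31), and Nqo1 gave 0.09 ± 0.35. Swimming libraries overlapped the combination libraries for both. Of 20 genes of the integrated stress and unfolded protein responses 2 fell and none rose. Trib3, a pseudokinase induced by stress, was at 18.9, 20.7 and 27.4 CPM with swimming and 7.02, 6.48 and 7.02 CPM with the combination (-1.71 ± 0.30, adjusted p = 0.0133), and Atf4, its transcription factor, fell by 0.69 (adjusted p = 0.0372). Of 15 heat shock genes 0 were called (1 higher and 2 lower at an unadjusted p under 0.05, 1 higher by DESeq2), and 1 was called higher without swimming 2. Of 16 tested genes of xenobiotic metabolism 1 fell, the exporter Abcc3, by 0.91 (adjusted p = 0.024). Nrf2 calls numbered 0, 2 and 0 without swimming 1, 2 and 3, and 0, 0 and 0 without combination 1, 2 and 3, with 6 without control 1, 7 without control 2, 1 without curcumin 3.

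Cell cycle genes leaned higher, with a single call. Of 28 genes 27 had a positive log2 fold change, the median was 0.49, and 1 was called (6.88% of all genes were). Ccne2, the late G1 cyclin, was at 5.69, 5.49 and 4.51 CPM with swimming and 15.3, 21.1 and 15.8 CPM with the combination (1.73 ± 0.36, adjusted p = 0.0205). Mki67, the proliferation antigen, was at 512, 571 and 362 CPM with swimming and 822, 893 and 802 CPM with the combination. Its groups were apart, with swimming 3 the lowest, and the log2 fold change of 0.80 ± 0.34 did not pass the test (adjusted p = 0.146). Curcumin without swimming gave the list a median of 0.46, with 27 of 28 positive and 0 called. Control 2 was far below the other libraries (-1.11 on the centred scale), and without it that median was 0.13, with 24 of 28 positive. Leaving out control 2, which is not part of the comparison but enters the shared spread, raised the cell cycle calls from 1 to 13.

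Genes of cell death and damage had calls in both directions, where 3.67% of all genes were called higher and 3.21% lower. Of 12 tested BCL2 family genes 2 fell and none rose, the killer protein Bcl2l11 (BIM) by 0.90 (adjusted p = 0.0104) and the mitophagy receptor Bnip3l by 0.47 (adjusted p = 0.0243). Of 15 p53 targets 1 rose and 1 fell. Gadd45a was at 32.3, 34.3 and 35.7 CPM with swimming and 10.7, 11.3 and 12.4 CPM with the combination (-1.58 ± 0.36, adjusted p = 0.0277), and Zmat3 rose by 0.66 ± 0.15. Among immediate early genes Ier3 fell by 1.27 (adjusted p = 0.0104) and Nr4a1 rose by 0.69 ± 0.14. Myc and Stat3 gave 0.14 ± 0.16 and -0.14 ± 0.13 (adjusted p = 0.612 and 0.494), and their groups overlapped. Mmp3, a matrix-degrading protease, fell from 187, 223 and 193 CPM to 69.9, 58.3 and 71.2 CPM (-1.60 ± 0.23, adjusted p = 0.0069). Adamts4 and Adamts12, proteases that act on matrix proteoglycans and other matrix proteins, rose by 1.35 ± 0.27 and 1.49 ± 0.33. Of the genes outside the lists whose call held without each library, Mtss1, a membrane-bending protein, was at 313, 307 and 296 CPM with swimming and 178, 179.8 and 165 CPM with the combination (-0.81 ± 0.11, adjusted p = 0.00571). Unc13a, a priming factor of vesicle release, fell from 21.8 ± 2.06 to 11.4 ± 0.747 CPM and Rnf169, a ubiquitin-binding protein of the DNA damage response, from 45.8 ± 2.19 to 29.04 ± 1.65 CPM.

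Several of the largest fold changes fell on sparsely counted genes. Olfr810, an olfactory receptor gene, rose by 7.47 on the log2 scale (adjusted p = 0.0485, edgeR). It had 0 summed counts in the swimming libraries and 67 in the combination libraries. Col9a1, a cartilage collagen, had 2 summed counts in the swimming libraries and 93 in the combination libraries, a ratio of 44.4 with an exact 95% interval of 11.96 to 372 that covers counting error only. It was at 1.34 ± 0.895 CPM in controls and 1.41 ± 1.37 CPM with curcumin alone, so the swimming group had the lowest mean, although 1 curcumin library was at 0 as well. Aspa, an aminoacylase that releases acetate from N-acetylaspartate, was at 0.937, 1.06 and 0.815 CPM with swimming and 7.51, 6.904 and 7.97 CPM with the combination (2.98 ± 0.30, adjusted p = 0.000945). Here the combination group was above all others, with controls at 1.88 ± 0.562 CPM and the curcumin group at 1.802 ± 0.503 CPM. The receptor tyrosine kinase Epha3 and the secreted C1qtnf3 rose by 3.05 ± 0.70 and 2.97 ± 0.63. On the other side Bank1, a scaffold of B cell signalling, had 118 summed counts with swimming and 10 with the combination (ratio 0.081, exact 95% interval 0.0379 to 0.154, counting error only). Scara5, a ferritin receptor, was at 25.7, 4.49 and 36.9 CPM in the swimming libraries and 3.15, 4.300 and 4.49 CPM in the combination libraries (-2.49 ± 0.58, adjusted p = 0.0285), and swimming 2 lay just above the combination group.

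Markers of neighbouring tissues moved as well, beside the vessel and matrix genes. Of all genes 3.67% were called higher and 3.21% lower. Adipocyte markers summed to 14.8 to 17.2 CPM in the swimming libraries and 37.7 to 40.1 CPM in the combination libraries, and of 7 tested 2 rose, the fatty acid binding protein Fabp4 (1.21 ± 0.24, also made by capillary endothelium) and the lipid droplet protein Plin4 (2.84 ± 0.59). Both calls were lost without swimming 1 or any 1 combination library. Of 4 tested nerve genes Ngfr, a neurotrophin receptor, rose by 1.58 ± 0.28, and of 4 tested keratinocyte genes Krt14 rose by 1.15 ± 0.31. The keratinocyte markers summed to 42.3 to 120 CPM with swimming and 158 to 168 CPM with the combination, and 5 of the 11 were at 0 in all 6 libraries. Hbb-bs and Hba-a1, globin genes of red blood cells, fell by 1.60 and 1.65 on the log2 scale, and globin genes have near-identical copies. The skeletal muscle list had 0 of 14 called, and none at an unadjusted p under 0.05 or by DESeq2, with sums of 88.2 to 395 CPM in the swimming libraries and 201 to 202 CPM in the combination libraries. Of 14 tested tumour epithelium genes 2 fell and none rose, the protease inhibitor Spint1 by 0.56 and the keratin Krt18 by 0.33 (adjusted p = 0.0193 and 0.0494). Yet 6 of the 14 had a positive log2 fold change, and 3 were higher and 2 lower at an unadjusted p under 0.05. DESeq2 also called 3 higher and 2 lower. The part of tissue composition in the vessel, matrix and hypoxia differences was not tested.

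Transcripts often read as signs of RNA quality leaned one way each, with few calls (6.88% of all genes were called). All 10 tested mitochondrially encoded genes had a positive log2 fold change, with a median of 0.23, and mt-Nd6 was called, at 106, 87.8 and 149.5 CPM with swimming and 263, 521 and 364 CPM with the combination. It lies opposite mt-Nd5 on the other strand, and the strand setting of the counting is not given, so its reads cannot be told from those of mt-Nd5. Mitochondrial genes took 4.60% ± 0.26 of counts in the swimming libraries and 5.33% ± 0.67 in the combination libraries (SD, n = 3). Of 28 ribosomal protein genes 26 were negative, with a median of -0.32, and 1 was called, Rps7 at -0.42 ± 0.11. Combination 2 was the highest for the mitochondrial list (0.67, against 0.25 and 0.33 in combination 1 and 3) and the lowest for the ribosomal list. Their part in the differences above was not tested.

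**Figure D5:**
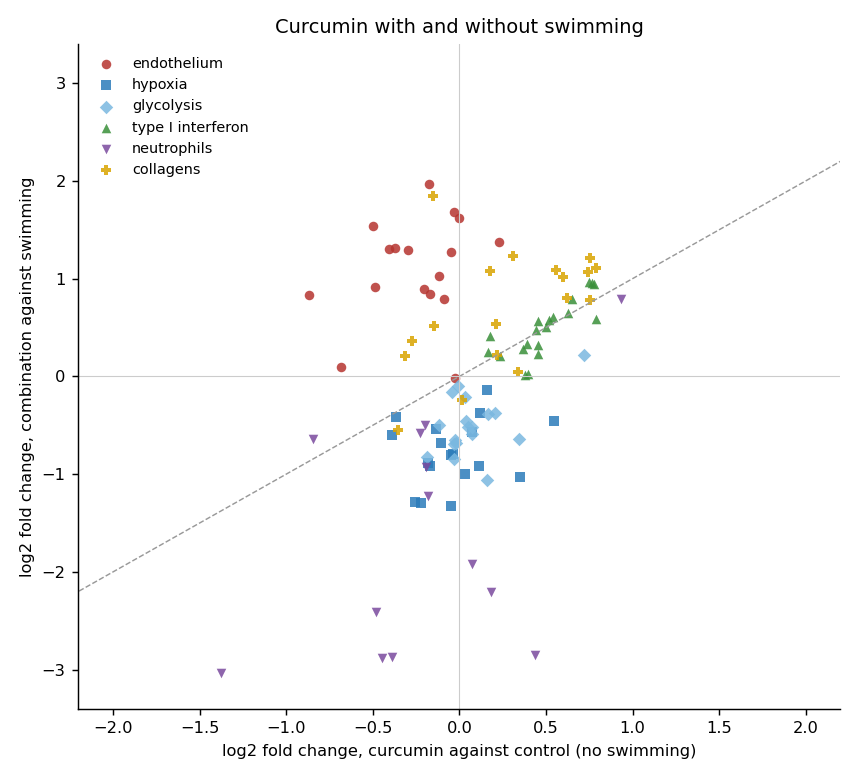
Points are tested genes of 6 lists, with the log2 fold change of curcumin against control (no swimming) on the x axis and that of combination against swimming on the y axis, and the dashed line marks equal values. Most interferon genes lie near the line, whereas most endothelial genes lie above it and most hypoxia, glycolysis and neutrophil genes below it.

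The list medians for curcumin added to swimming and for curcumin against control, which share no library, are set side by side. Type I interferon genes had 0.49 and 0.45, and the second value lay between 0.37 and 0.54 with any 1 control or curcumin library left out. Cell cycle genes had 0.49 and 0.46 and ribosomal protein genes -0.32 and -0.23, but without control 2 the second values were 0.13 and -0.10. Endothelial genes had 1.27 and -0.17, hypoxia genes -0.80 and -0.05, glycolysis genes -0.52 and 0.03, clock genes -0.54 and 0.02 and neutrophil genes -1.92 and -0.20. Without control 2 the second values of these 5 lists were -0.004, 0.18, 0.20, 0.07 and 0.61, so the sign for hypoxia and neutrophil genes turned. The median difference between the 2 changes was 1.19 to 1.55 for endothelial, -1.05 to -0.51 for hypoxia and -2.39 to -0.95 for neutrophil genes with any 1 control or curcumin library left out. The difference between the changes was tested gene by gene, and 19 genes passed, 11 higher (0.0807%) and 8 lower (0.0587%) with swimming. Aspa, Aplnr, Fmod, Meox2, Adgrl4, Sparcl1, Ptprb and Plvap were among the higher, and Slpi, Ptges, Unc13a and Gbe1 among the lower. None of the 19 passed in every fit that left out 1 library: 0 genes were called without swimming 1, combination 1 or combination 3, 1 without combination 2, 95 without swimming 2 and 15 without swimming 3. The number was 26, 448 and 20 without control 1, 2 and 3, and 4, 7 and 1 without curcumin 1, 2 and 3.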

How the data were processed

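RNA sequencing counts of 4 groups of 3 tumour libraries were used. Per the submitters' processing notes, the authors named cutadapt, TopHat2, HISAT2, HTSeq 0.9.1 and DESeq 1.30.0, and a read count per gene was deposited for each library. The deposited FPKM columns equalled those counts over gene length and library total in all 184877 values checked (tolerance 1e-05) and were not used further. The build is given as GRCm39 in the submitters' notes and differently in the labels' protocol, so it stays uncertain for coordinates. The strand setting is not given in the sources used here.

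Genes were filtered by filterByExpr (minimum count 10, minimum total 15), scaled by TMM and tested with edgeR 4.0.16 (R 4.3.3), a quasi-likelihood fit of all 12 libraries with 1 coefficient per group and 8 residual degrees of freedom. The sources used here give no design for DESeq. An adjusted p of 0.05 or below was called. The SE of a log2 fold change was derived as its size divided by the square root of the F statistic of its test. Centred list levels used log2 CPM with a prior count of 2. Alternatives were DESeq2 1.42.0, limma 3.58.1 voom with group weights, RLE scaling, other filters, a 1.5-fold test, a fit of the 2 groups alone, the combination libraries summed, and each library left out. The test was also run on simulated counts that gave every group the same spread per gene. The groups here differ in spread, so that run does not bear on unequal spread. Library totals were 15069348 to 17278826 counts.

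Genes named were, for each direction, the 12 with the largest change of at least 1 CPM and the 12 with the smallest p among those called without overlap between groups. Up to 6 called members of each list, at most 5 genes a direction of the difference between changes, and a panel of 12 genes were added, and other list members were chosen after their values were seen. The comparison and the 48 gene lists were chosen with earlier results of these data known. Promoters came from RefSeq for GRCm38.p6. Some results are not reported here.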

Additional observations from a re-analysis of the deposited data

Results flagged for a closer look

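For 10 named genes the change with curcumin differed between mice that swam and mice that did not, by an edgeR test of the difference between the 2 log2 fold changes (combination minus swimming, less curcumin minus control). The difference was 3.04 for Aspa, 2.64 for Aplnr, 2.16 for Fmod, 2.03 for Meox2 and 1.90 for Adgrl4 (adjusted p = 0.022, 0.0395, 0.022, 0.022 and 0.022). In these 5 genes the combination libraries had the highest mean of the 4 groups. The difference was -2.94 for Cwc22, -1.63 for Slpi, -1.30 for Dok2, -1.28 for Itgb2 and -1.25 for Gbe1 (adjusted p = 0.022, 0.022, 0.0395, 0.029 and 0.022). Cwc22 has near-identical copies in the mouse genome, so its counts are uncertain. It was at 148, 162 and 119 CPM in the swimming libraries and 45.1, 42.2 and 45.2 CPM in the combination libraries. Dok2 and Itgb2, an adaptor and an integrin of leukocytes, were at 22.7 ± 1.31 and 242 ± 31.9 CPM with swimming and at 13.2 ± 1.47 and 144 ± 5.49 CPM with the combination. None of these 10 differences stayed past the threshold in every fit that left out 1 library.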

How the results depend on the processing

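The 938 calls between combination and swimming became 1886 with DESeq2 (all 938 among them), 2797 with limma voom and a weight per group, 2719 with only these 2 groups in the fit, 6 in a test against a 1.5-fold change and 0 with the combination libraries summed. They numbered 927 with RLE scaling, 893 with no filter and 909 with a mean count of at least 50. Leaving out 1 library gave 28 (without combination 2) to 2730 (without control 2). The 120 distinct list members called became 191, 266, 265, 4 and 0 in the same order, and 11 to 258 with 1 library left out. The 19 calls of the difference with and without swimming became 217 with DESeq2, 34 with RLE scaling, 40 with no filter, 32 with a mean count of at least 50, 36 with voom, 0 in the 1.5-fold test and 0 with the combination libraries summed, and 0 to 448 with 1 library left out. Curcumin against control had 0 calls and gained 87 with DESeq2, 3 with no filter and 0 to 10 with 1 library left out. With replicate number as a block the 3 counts were 512, 5 and 1. Deviations of same-numbered swimming and combination libraries correlated at 0.01, -0.03 and 0.05, and not every library correlated best with its own number, so the labels' numbers were not taken as pairs. With 1 of the 6 compared libraries left out, 11 of 43 list medians crossed 0, each at most 0.23 in size with all libraries. Nqo1 ran from -0.11 (without swimming 3) to 0.58 (without swimming 2), with -0.09 without swimming 1 and -0.01 without combination 2. Il1b ran from -0.053 (without swimming 2) to 0.33 (without swimming 3). The xenobiotic metabolism median ran from -0.21 (without swimming 1) to 0.011 (without swimming 2), with 0.0008 without swimming 3. The mast cell median was 0.31 with a mean count of at least 50 and 0.32 with only the 2 groups, against -0.93. The causes were not tested. Depth limits the folds of the sparsest genes, such as Slc6a2 with 2 summed counts in the combination libraries.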

Other observations

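Genes of lipid synthesis, the respiratory chain and cytokine signalling showed few calls between combination and swimming, where 6.88% of all genes were called. Of 22 genes of cholesterol and fatty acid synthesis 2 fell and none rose (median 0.06), the transcription factor Srebf1 by 0.44 and the desaturase Scd2 by 0.47 on the log2 scale (adjusted p = 0.024 and 0.0335, edgeR). Of 18 tested nuclear genes of the respiratory chain 1 rose and none fell, cytochrome c (Cycs) by 0.67 ± 0.18 (adjusted p = 0.0437), with a median of -0.07. Of 12 genes of IL-6 and STAT3 signalling 1 fell, the receptor Il6ra by 0.58 (adjusted p = 0.0322). Of 4 tested lymphatic endothelial genes Flt4 alone was called, and Pdpn, a glycoprotein of lymphatics and fibroblasts, gave 0.93 (adjusted p = 0.0583).

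Mast cell and B cell lists had 0 calls by edgeR. Among 6 tested mast cell genes 1 was higher and 1 lower at an unadjusted p under 0.05, and 1 was called lower by DESeq2. Without swimming 2, 1 was called higher. Among 9 B cell genes, 2 held enough counts to be tested, and neither passed by either tool or at an unadjusted p under 0.05.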
